A study of Drosophila melanogaster with 18 samples.

Results

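The 8 Hox genes of Drosophila melanogaster (lab, pb, Dfd, Scr, Antp, Ubx, abd-A and Abd-B) were examined for binding of GAF and for acetylation of histone H4 (H4K8ac) in early embryos at interphase and in mitosis. A called peak was assigned to a Hox gene when it overlapped the gene body, or lay within 5 kb of it, and the stretches between Ubx and abd-A and between abd-A and Abd-B were added. A peak that reached both a gene window and a stretch was counted once, with the gene. This gave 34 of 4970 interphase GAF peaks, 19 of 1839 mitotic GAF peaks, 30 of 5806 interphase H4K8ac peaks and 32 of 5405 mitotic H4K8ac peaks. The choice used position alone and none of the ChIP values. All samples were wild type yw embryos collected 1 to 2.5 h after egg laying per the labels (the study's methods give a later start), fixed, stained for the mitotic mark H3S10ph and sorted as whole embryos into interphase and mitotic pools of 1000 per sample. GAF ChIP-seq had 3 samples in interphase and 2 in mitosis, H4K8ac ChIP-seq had 2 at each stage, and each of the 4 groups had as many input samples, 18 samples in all. The deposited lists give the start and end of peaks called on the mean of the replicates, with no height or read count, so no value has a replicate error and no test between stages could be made. Each sample pooled all nuclei of whole embryos, so nuclei of different body segments cannot be told apart in these lists.

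Hox genes encode homeodomain transcription factors that give each segment its identity along the head-to-tail axis, and in the fly they lie on chromosome arm 3R in the Antennapedia complex (lab, pb, Dfd, Scr and Antp) and the bithorax complex (Ubx, abd-A and Abd-B). Their on or off state is set early by the products of the segmentation genes and then passed through cell divisions by Polycomb and trithorax group proteins. GAF, the product of Trithorax-like, is a zinc finger protein that binds GAGAG repeats at promoters and at Polycomb response elements. H4K8ac is an acetyl mark on the tail of histone H4 that is found at active chromatin.

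Sequences under some of the mitotic GAF peaks show the GAGAG they held, not which bases were bound. Those at the start sites of 4 Hox genes, those with the most GAGAG in each stretch between bithorax genes and that of a peak beside the Hox microRNA genes are printed from the plus strand of dm6 (release 6 of the genome), together with an Antp intron peak that was called in interphase only. At most 300 bases of each peak are given, chosen for the most GAGAG and cut clear of annotated UTRs. Capitals mark GAGAG and its reverse complement CTCTC.
Dfd start site, chr3R:6791552-6791831: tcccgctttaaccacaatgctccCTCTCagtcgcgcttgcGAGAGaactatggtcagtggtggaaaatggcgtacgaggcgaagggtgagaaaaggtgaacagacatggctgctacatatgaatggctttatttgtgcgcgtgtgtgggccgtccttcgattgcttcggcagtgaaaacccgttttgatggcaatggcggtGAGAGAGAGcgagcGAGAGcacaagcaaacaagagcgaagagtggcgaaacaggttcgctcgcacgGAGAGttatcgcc
Ubx start site, chr3R:16734452-16734701: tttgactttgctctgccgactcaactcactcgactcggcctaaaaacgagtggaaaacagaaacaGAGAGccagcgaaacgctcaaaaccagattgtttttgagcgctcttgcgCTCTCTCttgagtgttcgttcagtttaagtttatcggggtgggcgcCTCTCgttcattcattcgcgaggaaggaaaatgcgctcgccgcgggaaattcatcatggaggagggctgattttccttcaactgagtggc
abd-A start site, chr3R:16830102-16830401: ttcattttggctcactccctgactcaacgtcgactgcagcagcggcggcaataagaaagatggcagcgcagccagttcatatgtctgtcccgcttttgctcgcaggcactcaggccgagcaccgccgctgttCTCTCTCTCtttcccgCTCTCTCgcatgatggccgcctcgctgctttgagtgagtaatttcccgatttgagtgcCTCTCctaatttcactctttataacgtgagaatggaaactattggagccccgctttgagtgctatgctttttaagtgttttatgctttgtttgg
Abd-B start site, chr3R:16934325-16934624: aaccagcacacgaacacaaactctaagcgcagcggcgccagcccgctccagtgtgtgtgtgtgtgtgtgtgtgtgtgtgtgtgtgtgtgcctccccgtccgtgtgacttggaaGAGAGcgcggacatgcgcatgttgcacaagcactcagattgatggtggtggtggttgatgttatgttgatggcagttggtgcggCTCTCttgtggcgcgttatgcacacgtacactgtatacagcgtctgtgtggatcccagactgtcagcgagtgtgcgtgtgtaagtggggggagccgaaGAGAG
lncRNA:bxd intron, chr3R:16763802-16764101: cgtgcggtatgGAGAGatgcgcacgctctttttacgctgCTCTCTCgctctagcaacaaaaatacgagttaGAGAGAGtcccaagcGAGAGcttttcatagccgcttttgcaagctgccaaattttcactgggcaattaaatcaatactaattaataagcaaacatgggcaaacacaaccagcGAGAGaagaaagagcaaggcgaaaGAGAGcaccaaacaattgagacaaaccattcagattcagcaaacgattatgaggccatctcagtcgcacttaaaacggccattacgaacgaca
beside mir-iab-4 and mir-iab-8, chr3R:16857607-16857906: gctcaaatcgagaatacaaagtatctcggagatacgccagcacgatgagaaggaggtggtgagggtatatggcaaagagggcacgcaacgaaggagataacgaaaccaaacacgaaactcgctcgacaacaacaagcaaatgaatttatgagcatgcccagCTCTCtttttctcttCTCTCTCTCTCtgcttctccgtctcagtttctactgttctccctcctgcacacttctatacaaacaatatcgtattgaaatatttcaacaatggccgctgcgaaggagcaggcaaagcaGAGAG
lncRNA:iab8 intron, chr3R:16898966-16899265: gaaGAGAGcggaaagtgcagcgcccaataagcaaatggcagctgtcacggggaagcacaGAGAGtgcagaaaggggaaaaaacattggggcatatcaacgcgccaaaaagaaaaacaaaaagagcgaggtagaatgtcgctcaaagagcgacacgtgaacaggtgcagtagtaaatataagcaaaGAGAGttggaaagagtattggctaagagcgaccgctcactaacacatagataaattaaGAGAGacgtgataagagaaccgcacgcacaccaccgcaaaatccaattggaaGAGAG
Antp intron, interphase-only, chr3R:6915552-6915801: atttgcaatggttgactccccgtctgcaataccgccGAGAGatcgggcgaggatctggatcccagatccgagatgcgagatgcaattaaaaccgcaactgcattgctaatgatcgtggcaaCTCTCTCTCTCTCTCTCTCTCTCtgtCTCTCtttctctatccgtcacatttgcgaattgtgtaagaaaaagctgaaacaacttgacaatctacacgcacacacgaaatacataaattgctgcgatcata

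The GAGAG matches lay apart at the Ubx and Abd-B start sites and partly close together at those of Dfd and abd-A. In the Antp intron most of them were packed in a run. The stretches at Ubx and abd-A held 3 matches each in 250 and 300 bases, the stretch in the lncRNA:bxd intron held 6 in 300 bases, and the Antp stretch held 6 in 250 bases, with a single capital run of 23 bases. The peak with the longest repeat printed here was one that was not called in mitosis. Its GA repeat measured 24 bp, and retained Ubx intron peaks that are not printed had GA repeats of 24 and 23 bp.

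GAF lay at the start sites of 6 Hox genes, Dfd, Scr, Antp, Ubx, abd-A and Abd-B, in interphase. In mitosis it lay at 4 of them, Dfd, Ubx, abd-A and Abd-B. An interphase GAF peak came within 100 bp of an annotated start site in 6 of 8 Hox genes, against 11.5% of 13986 protein-coding genes, and a mitotic GAF peak in 4 of 8, against 4.61%. By contrast, 0 of 8 Hox genes had an H4K8ac peak within 100 bp of a start site in interphase, against 42.4% of protein-coding genes, and 0 of 8 in mitosis, against 42.6%. With 8 genes, a count of 0 allows a share of up to 37.5%. A gene was counted when any of its annotated start sites was met. The shares of protein-coding genes were not matched for gene length or number of start sites.

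**Figure D1:**
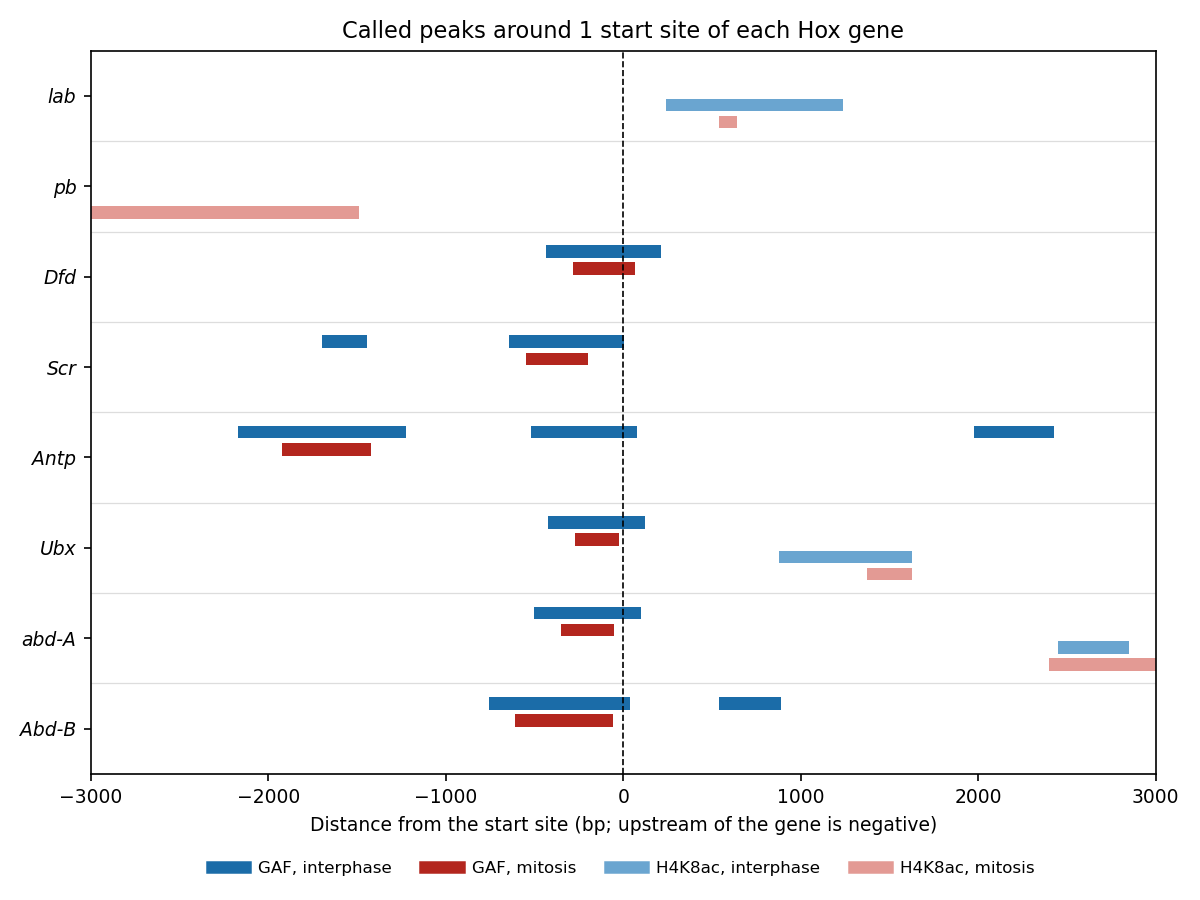
Called peaks of the 4 lists around 1 annotated start site of each Hox gene (rows), drawn as bars by their distance in bp, with upstream of the gene to the left. Dfd, Ubx, abd-A and Abd-B have a mitotic GAF bar inside an interphase GAF bar at 0, lab and pb have no GAF bar, and no H4K8ac bar reaches the dashed line.

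Dfd, which patterns the mandibular and maxillary segments, had 1 GAF peak, at its start site (chr3R:6791401-6792051, 650 bp). It held 5 GAGAG, and the mitotic peak (chr3R:6791551-6791901) kept all 5. They began 261, 244, 83, 69 and 17 bp upstream of the start site, the last nearer to it than any GAGAG at the other Hox start sites with GAF. The nearest H4K8ac peak was 9150 bp away in interphase and 9000 bp away in mitosis.

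Scr, the gene of the labial segment and first thoracic segment, had 2 GAF peaks, 1 at each of its annotated start sites. The peak at the downstream start site (chr3R:6848501-6849151) held 4 GAGAG and was retained, with 3 of the 4 inside the mitotic peak, whose edge stood 196 bp from the start site. The peak at the other start site (chr3R:6849951-6850201) was 250 bp long, held 2 GAGAG and overlapped no mitotic peak, but the deposited list of GAF peaks shared by both stages holds it. Neither start site had a mitotic peak within 100 bp.

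Antp, which specifies the second thoracic segment, had the most GAF peaks of the Hox genes, 10, of which 3 were retained. Only 30 of 13986 protein-coding genes had as many as 10, but only 86 are at least as long as Antp. Per 100 kb of window Antp had 8.85 peaks, against 12.2 at abd-A. The peak at its upstream start site (chr3R:6999151-6999751, 600 bp, 3 GAGAG) overlapped no mitotic peak, but it too is in the deposited shared list. Farther upstream, 1224 bp from the gene, a longer peak (chr3R:7000451-7001401, 950 bp, 7 GAGAG) kept all 7 GAGAG within its mitotic peak. The other retained peaks were chr3R:6966601-6967201 in an intron, with 4 GAGAG, and chr3R:6893201-6893801 past the 3' end, which had 2 GAGAG and a mitotic peak of 100 bp. The 6 remaining interphase-only peaks of Antp lay in introns and were 150 to 450 bp long. One of them, chr3R:6915551-6915801, held 6 GAGAG in 250 bp and its GA repeat of 24 bp equalled the longest of the 34 peaks.

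**Figure D2:**
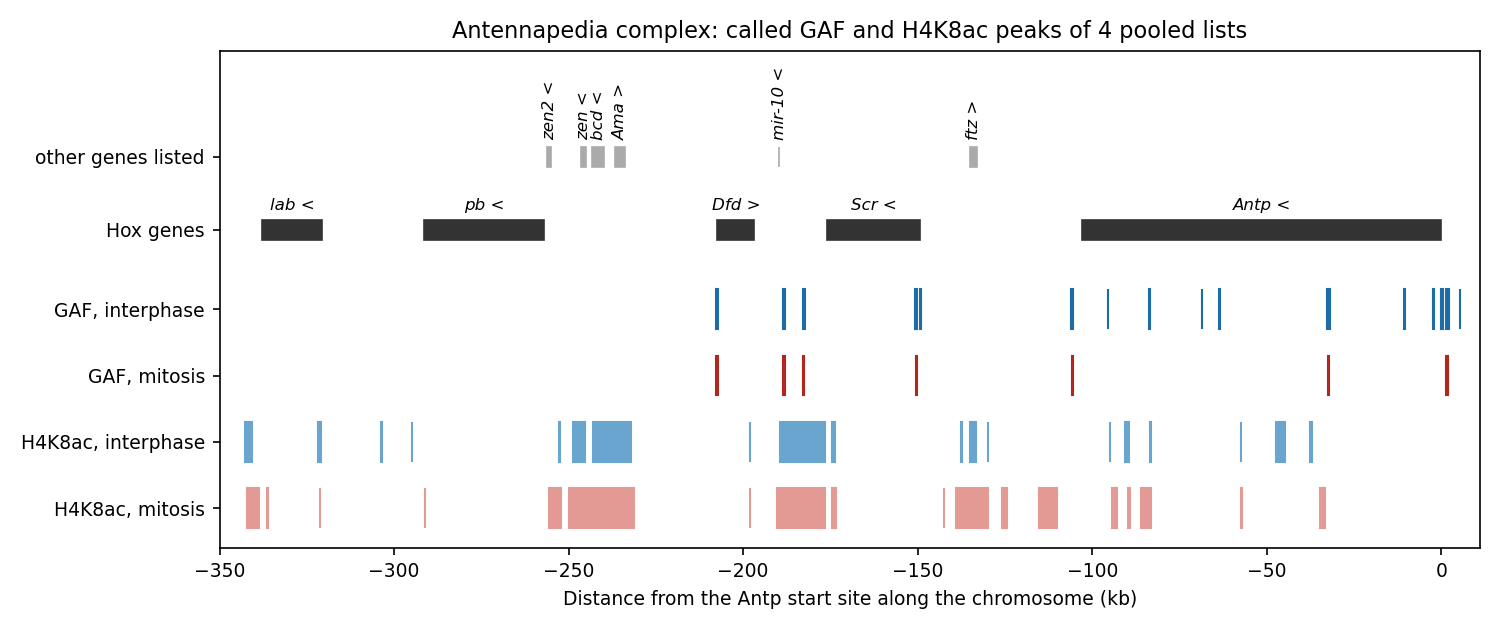
Map of the Antennapedia complex, in kb from the upstream Antp start site along the chromosome, with gene bodies above (arrowheads give their direction) and 1 row of called peaks per list. All GAF peaks lie from Dfd to the right, and the left part with lab, pb, zen, bcd and Ama holds H4K8ac peaks alone. The pair of GAF peaks between Dfd and Scr, and the peak farthest right, lie outside the 5 kb windows.

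No GAF peak was called at lab, which acts in the head and midgut, or at pb, which acts in the mouthparts. They share one GAF-free stretch of 260350 bp, from chr3R:6531051 to the Dfd peak, and only 3 of the 1091 gaps between neighbouring interphase GAF peaks on 3R are as wide. The nearest interphase GAF peak was 112811 bp from the upstream lab start site and 49338 bp from the pb start site. Of all protein-coding genes, 37.5% had an interphase GAF peak in the same window, and among the 1874 genes at least as long as Dfd, the shortest member, 73.9% had one.

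Ubx, which specifies the third thoracic segment and represses wing fate in the haltere, had 6 GAF peaks, and 5 of them were retained. Only 27 protein-coding genes had at least 5 retained peaks, but only 146 are at least as long as Ubx. The start site peak (chr3R:16734301-16734851, 550 bp) held 3 GAGAG, beginning 190, 144 and 95 bp upstream of the start site, and all 3 lay in the mitotic peak (chr3R:16734451-16734701). The longest GAF peak of all the Hox genes, chr3R:16702501-16704001, lay in a Ubx intron. It measured 1500 bp and held 10 GAGAG, 6 of them within the 600 bp of its mitotic peak.

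Nearer the start site, the intron held retained peaks at chr3R:16715551-16716201 with 7 GAGAG, at chr3R:16719651-16720451 with 6 and at chr3R:16726501-16726951 with 5. In the last, all 5 GAGAG lay in a mitotic peak of 100 bp, and the peak held a GA repeat of 24 bp. The single interphase-only peak, chr3R:16718501-16718951, had 4 GAGAG in 450 bp and is in the deposited shared list.

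Between Ubx and abd-A, in 72787 bp, a single GAF peak was called beside the Ubx start site peak, which reaches into the stretch and was counted with Ubx. This peak, chr3R:16763501-16764551 in an intron of lncRNA:bxd, a noncoding RNA gene upstream of Ubx, held 12 GAGAG, the most of the 34 peaks, and its mitotic peak (chr3R:16763801-16764401) held 11 of them.

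At abd-A, which specifies abdominal segments, 4 GAF peaks were called and 2 were retained. The start site peak (chr3R:16829951-16830551) held 3 GAGAG, at 263, 205 and 189 bp upstream, and all 3 lay in the mitotic peak. The retained intron peak chr3R:16811751-16812351 also held 3. The interphase-only peaks, chr3R:16815701-16816001 and chr3R:16826251-16826401, held 2 each and were 300 and 150 bp long.

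The stretch between abd-A and Abd-B, where the noncoding RNA gene lncRNA:iab8 and the microRNA genes mir-iab-4 and mir-iab-8 lie, had 6 GAF peaks and 4 of them were retained, or 7 and 5 with the abd-A start site peak, which reaches into it and was counted with abd-A. The longest, chr3R:16898801-16900151 (1350 bp, 8 GAGAG), was the only one of the 34 that held 2 mitotic peaks, chr3R:16898951-16899451 with 6 GAGAG and chr3R:16899751-16900051 with 2. The peak beside the microRNA genes, chr3R:16857451-16858101, had 5 GAGAG, of which 4 lay in its mitotic peak. The other retained peaks, chr3R:16876701-16877101 and chr3R:16918851-16919451, held 4 and 2 GAGAG. The interphase-only peaks were the shortest of the stretch, 100 and 150 bp. The first of them, chr3R:16847301-16847401, was the only Hox GAF peak with 0 GAGAG.

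Abd-B, the gene of the last abdominal segments and the genitalia, had 4 GAF peaks and 1 was retained. Of its 6 annotated start sites 2 had an interphase GAF peak within 100 bp. The retained one, chr3R:16934201-16935001 (800 bp), held 4 GAGAG at 587, 382, 284 and 200 bp upstream, and its mitotic peak of 550 bp covered 68.8% of it, the largest covered share of the 18 retained peaks. The other start site peak, chr3R:16960351-16960701, with 3 GAGAG in 350 bp, was called in interphase alone, as were chr3R:16948601-16949001 in an intron (3 GAGAG) and chr3R:16933351-16933701 over an exon (1 GAGAG), the last of which is in the deposited shared list.

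**Figure D3:**
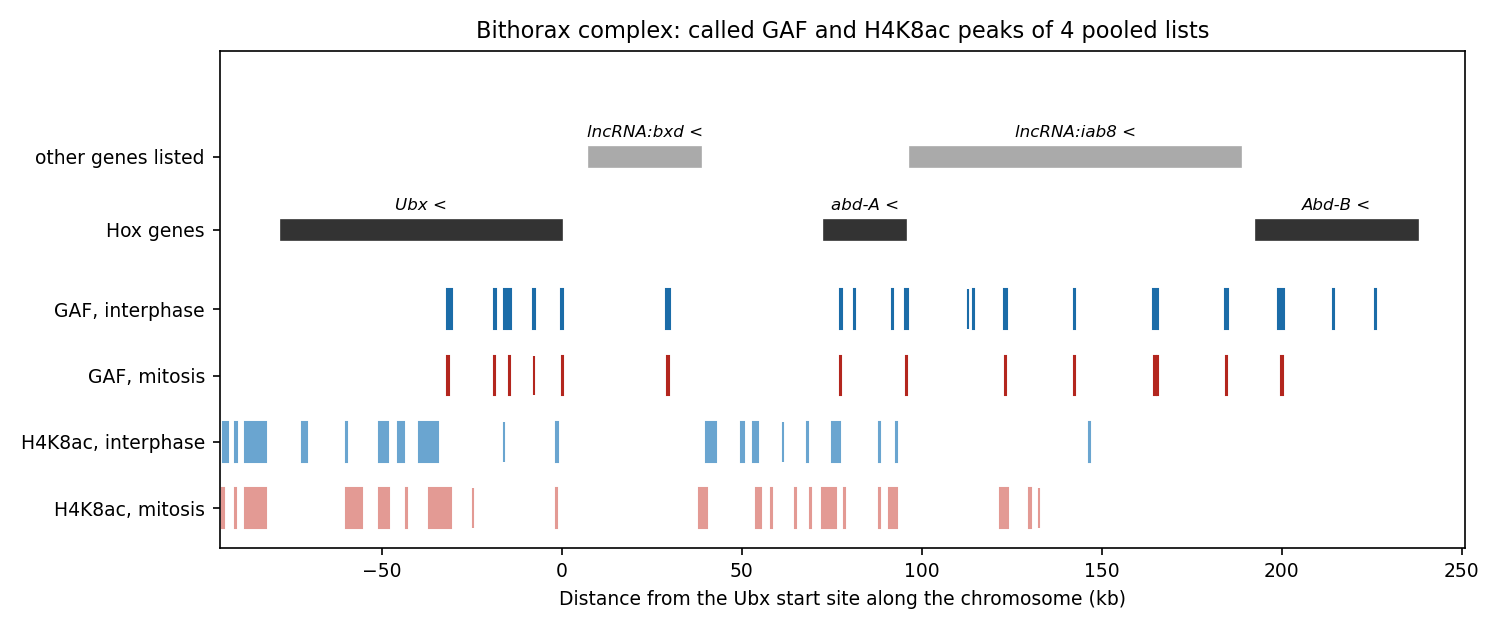
Map of the bithorax complex, in kb from the Ubx start site along the chromosome, with gene bodies above (arrowheads give their direction) and 1 row of called peaks per list. Mitotic GAF peaks are spread from the Ubx intron to the Abd-B start site, whereas H4K8ac peaks stop before Abd-B at both stages.

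The peaks at Hox start sites shared a position. The centres of all 8 peaks that came within 100 bp of a start site lay upstream of it, from 95 to 359 bp away. Over all protein-coding genes, 77.5% of 1748 such peaks had their centre upstream. The mitotic peaks of Ubx, abd-A and Abd-B ended 25, 52 and 59 bp short of their start sites, and that of Dfd reached over it.

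Over the Hox windows as a whole, 18 of 34 interphase GAF peaks (52.9%, exact 95% interval 35.1 to 70.2%) were retained in mitosis, that is, overlapped a mitotic GAF peak by at least 1 bp, against 31.2% of the whole list. The interval covers counting error and treats peaks as independent. All 19 mitotic GAF peaks had an interphase partner, against 91.6% of mitotic GAF peaks in the genome. The retained number was 0 of 0 at lab and pb, 1 of 1 at Dfd, 1 of 2 at Scr, 3 of 10 at Antp, 5 of 6 at Ubx, 1 of 1 in the stretch beside it, 2 of 4 at abd-A, 4 of 6 in the stretch beside it and 1 of 4 at Abd-B. The deposited shared list held these 18 and 4 of the 16 interphase-only peaks. By the stage lists the peaks thus split unevenly, with the bithorax stretches and Ubx mostly retained and Antp and Abd-B mostly not. The deposited shared list held 2 of the 4 peaks at Abd-B, 4 of the 10 at Antp and all 6 at Ubx. Per 100 kb of window there were 5.99 interphase and 3.35 mitotic GAF peaks, against 3.4 and 1.15 on arm 3R.

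Length differed between the classes, with overlap. Retained Hox peaks were 400 to 1500 bp long with a median of 650 bp, and interphase-only Hox peaks were 100 to 600 bp long with a median of 250 bp, so the classes overlapped between 400 and 600 bp. Of the 9 Hox peaks of 100 to 250 bp 0 were retained, against 2.46% of such peaks in the whole list, and of the 5 peaks of 300 to 400 bp 1 was, against 5.63%. The 10 peaks of 450 to 600 bp had 7 retained, against 48.2%, and the 10 peaks of 650 bp or more had all 10, against 82.7%. The Hox peaks were also longer than the list, with a median of 500 bp against 400 bp.

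GAGAG number followed the same order. Retained Hox peaks held 2 to 12 GAGAG (median 4.5, mean 5.22 ± 2.71 SD, n = 18) and interphase-only peaks 0 to 6 (median 2.5, mean 2.69 ± 1.54 SD, n = 16). In the whole list the medians were 6 and 3. Hox peaks with 4 or 5 GAGAG were retained in 7 of 10 cases, against 32.7% of the list, and those with 6 to 9 in 4 of 5, against 61.2%. Per kb of peak the order turned, with a median of 6.67 GAGAG in retained and 8.73 in interphase-only Hox peaks, so that the larger number went with the longer peaks. The Hox peaks were not richer in GAGAG than the list. Their median was 3.5 against 4, and 33 of 34 (97.1%) held at least 1, against 96.7%.

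**Figure D4:**
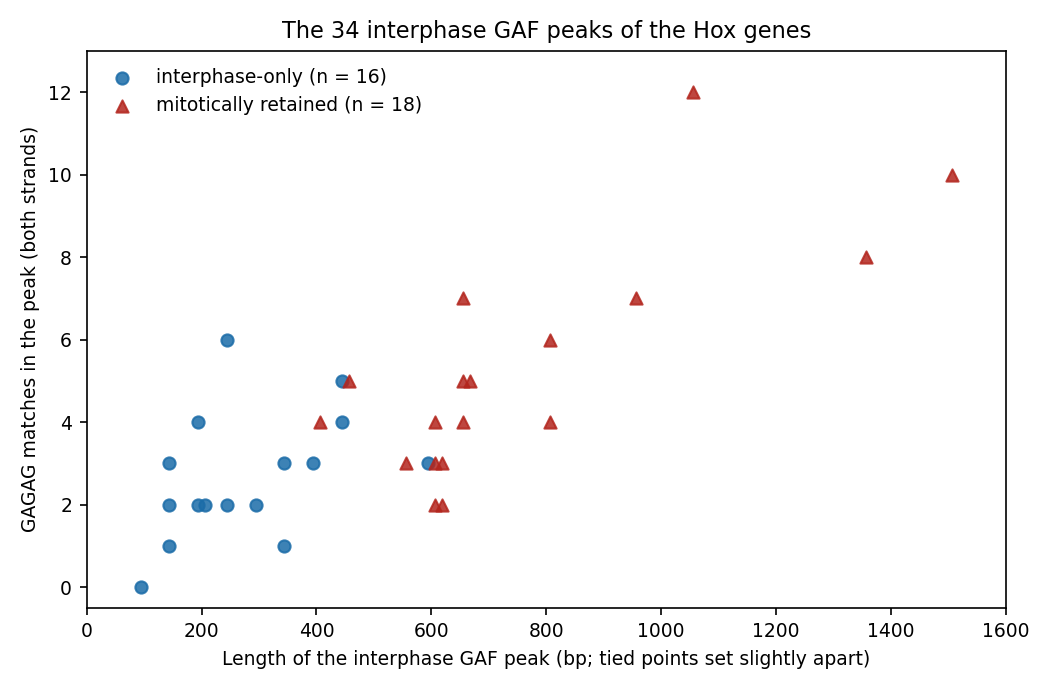
Length in bp (x axis) and GAGAG number (y axis) of the 34 interphase GAF peaks of the Hox genes, with triangles for the 18 retained and circles for the 16 interphase-only peaks. Triangles begin at 400 bp, every point at 650 bp or more is a triangle, and the circle with 6 GAGAG at 250 bp is the Antp intron peak whose sequence is printed.

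Within a retained peak, the part called in mitosis held most of the motifs. The mitotic peaks covered a median of 50% of the length of the 18 Hox peaks and held 83 of their 94 GAGAG (88.3%). In the whole list they covered a median of 42.9% and held 78.8%. All GAGAG of the start site peaks of Dfd, Ubx, abd-A and Abd-B lay in the mitotic part.

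Another short motif was more frequent around the centres of Hox GAF peaks than around those of the list. GCCAT, the core of the site of the Polycomb group protein Pleiohomeotic, was counted on both strands (GCCAT or ATGGC). It can share at most 1 letter with GAGAG. The count used a window of 300 bp around the centre of each peak, which reached past the edges of shorter peaks. For the 9 Hox peaks of 100 to 250 bp, all interphase-only, the window thus took in letters outside the peak. GCCAT was found in the windows of 25 of 34 Hox peaks (73.5%), against 42.8% of the 4970 peaks. It was in 12 of 18 retained and 13 of 16 interphase-only Hox peaks. The printed Dfd stretch held 5 copies and the printed Ubx stretch 0. CAGGTA, the site of the early activator Zelda, was in the same window in 4 of 34 (11.8%), against 6.78%. A match is a run of letters, not a measured site.

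GAF peaks and H4K8ac peaks of the Hox genes lay apart in interphase. In interphase 0 of 34 Hox GAF peaks overlapped an H4K8ac peak, against 23.1% of all interphase GAF peaks, and a count of 0 allows up to 8.82% by 3 counts of the total (10.3% by the exact 95% interval). A Ubx intron peak (chr3R:16718501-16718951) and an abd-A intron peak (chr3R:16811751-16812351) shared an edge with an interphase H4K8ac peak without overlapping it. Counting such contact as overlap gave 2 of 34 (5.88%), against 24.0% of the list. The median gap from a Hox GAF peak to the nearest interphase H4K8ac peak was 10275 bp, against 3650 bp, and 6 of 34 lay within 1000 bp, against 34.4%.

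In mitosis 4 of 34 Hox GAF peaks (11.8%) lay under a mitotic H4K8ac peak, against 25.2% of the list. These 4 were the longest Ubx intron peak and the peak beside the microRNA genes, both retained, and the interphase-only peaks chr3R:6915551-6915801 of Antp and chr3R:16826251-16826401 of abd-A. In each case the acetylated domain had its edges elsewhere in interphase or was not called. In the Ubx intron it ran over chr3R:16694901-16700201 in interphase and over chr3R:16697551-16703751 in mitosis, so that the mitotic domain covered 1250 of the 1500 bp of the GAF peak and the whole of its mitotic peak. At the microRNA genes the nearest interphase domain was 22950 bp from the GAF peak, and the mitotic one spanned chr3R:16856301-16858351. Of the 19 mitotic GAF peaks, 2 lay in a mitotic H4K8ac peak, against 35.1% of all mitotic GAF peaks, and 0 in an interphase one, against 31.0%.

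**Figure D5:**
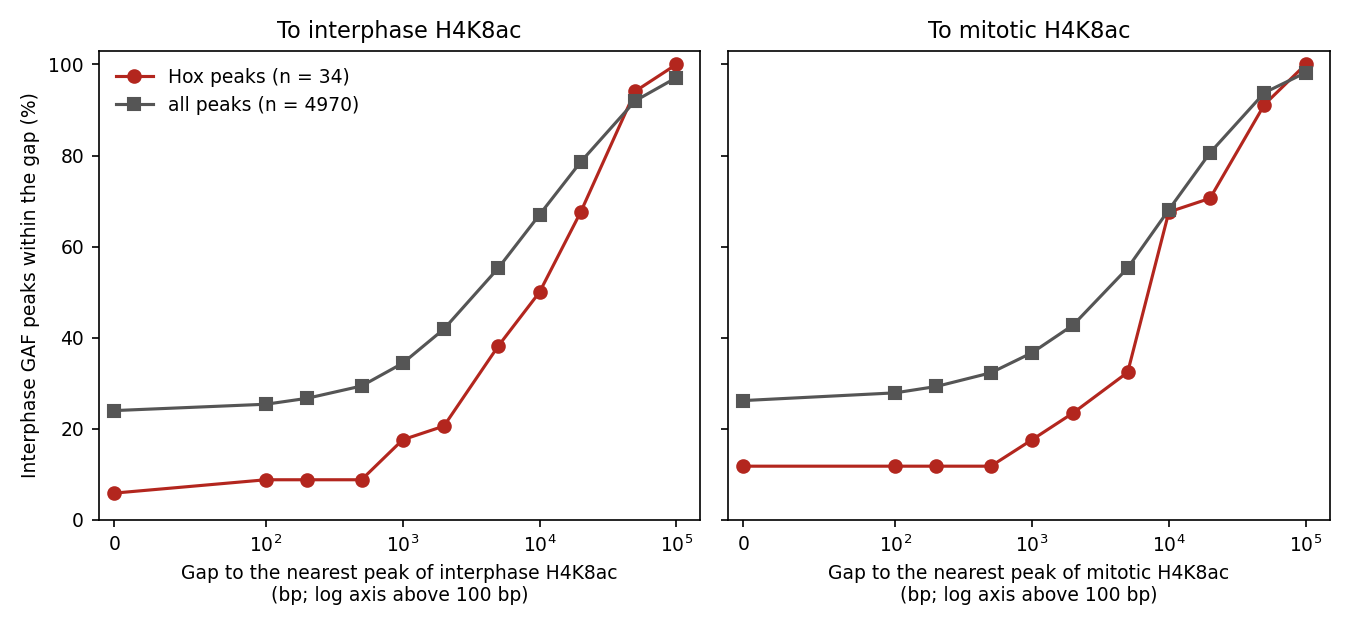
Share in percent (y axis) of interphase GAF peaks whose nearest H4K8ac peak is within the gap in bp on the x axis (0 means overlap or contact), for interphase (left) and mitotic H4K8ac (right), in the 34 Hox peaks and all 4970. The Hox line runs below the line of all peaks up to 20000 bp in both panels, by the least at 10000 bp in mitosis.

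Some Hox loci held H4K8ac with little or no GAF, and Abd-B held GAF with no H4K8ac. Acetylated domains covered 6.11% of the Hox windows in interphase and 8.55% in mitosis, against 9.75% and 9.49% of arm 3R. With all DNA between its genes included, the Antennapedia complex had 11.1% in interphase and 18.5% in mitosis, above the arm. The bithorax complex had 6.52% and 8.59%. Abd-B had 0 H4K8ac peaks in its window of 55025 bp at both stages, and the stretch between abd-A and Abd-B had 0.103% covered in interphase and 2.78% in mitosis. Ubx had 14.3% and 16.7%, abd-A 9.14% and 20.6%, Antp 4.12% and 6.33%, Dfd 0.486% and 1.21%, lab 10.7% and 14.7%, pb 0.791% and 7.91%, and Scr 14.7% and 15.3% of its window covered. The covered share was thus the higher one in mitosis at each Hox gene except Abd-B, whereas the stretch between Ubx and abd-A had 7.97% in interphase and 6.06% in mitosis.

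Part of this acetylation belonged to neighbours. Of the Hox H4K8ac peaks, 19 of 30 in interphase and 20 of 32 in mitosis touched the body of a Hox gene. At lab the longest domain covered twr and CG1307, at pb the mitotic domain of 3400 bp covered zen2, and at Scr it was the 3' flank that carried a domain of 13050 bp, which in mitosis (13650 bp) reached mir-10. The nearest acetylation to a Hox start site was at lab, 238 bp away in interphase, followed by abd-A at 503 bp from its innermost start site and Ubx at 874 bp. These 3 domains lay inside the transcribed region.

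H4K8ac peaks of the Hox genes recurred in mitosis but seldom with the same edges. Of the 30 interphase peaks, 19 (63.3%, exact 95% interval 43.9 to 80.1%) overlapped a mitotic peak, against 74.0% of all, and 19 of 32 mitotic peaks (59.4%) had an interphase partner, against 78.3%. The Hox interphase peaks were shorter than the list, with a median of 775 bp against 1100 bp. Those without a mitotic partner had a median of 200 bp, as in the list. With each peak required to cover 50% of the other, 5 of 30 (16.7%) remained, against 46.0% of all interphase H4K8ac peaks. In the abd-A gene a peak of 400 bp (chr3R:16827201-16827601) became one of 2300 bp (chr3R:16825351-16827651), and in Antp one of 250 bp (chr3R:6915901-6916151) became one of 2950 bp (chr3R:6913051-6916001). In the Ubx intron the domain at chr3R:16683751-16686351 kept nearly the same edges (chr3R:16683601-16686451). No H4K8ac peaks of a list lie closer than 2000 bp, so a long peak can hold shorter stretches under the threshold. Height is not in the lists.

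The other genes of the complexes differed in whether they had GAF. Of 10 such genes, 5 had an interphase GAF peak in their window, against 37.5% of protein-coding genes: lncRNA:bxd, lncRNA:iab8, mir-iab-4, mir-iab-8 and mir-10, and each of these had a retained one. The 5 protein-coding ones, zen, zen2, bcd, ftz and Ama, had none. All of them but ftz lie in the GAF-free stretch that holds lab and pb. mir-iab-4 and mir-iab-8 lie at 1 locus and share their peak, which lies in an intron of lncRNA:iab8 and is counted there too. H4K8ac lay within 100 bp of a start site in 3 of the 10 in interphase (bcd, ftz and Ama), against 42.4% of protein-coding genes, and in 9 in mitosis, all but lncRNA:iab8, against 42.6%. For the microRNA genes the start used was the edge of a short annotated span (chr3R:16856275-16856342 and chr3R:6809506-6809582). It need not be where their transcripts begin. A single mitotic domain of 18600 bp covered zen, bcd and Ama, where interphase had separate domains of 3650 and 10900 bp. These interphase domains, chr3R:6750351-6754001 and chr3R:6756251-6767151, stood only slightly farther apart than the 2000 bp below which H4K8ac signal was joined.

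The reach of 5 kb decided few GAF peaks. The farthest GAF peaks inside it lay 1224 and 2452 bp from Antp. The nearest outside it were chr3R:7004451-7004601, 5224 bp from Antp, 150 bp long with 3 GAGAG and not retained, chr3R:6816301-6816801, 6319 bp from Scr with 4 GAGAG and retained, and chr3R:6810501-6811201, 8074 bp from Dfd beside mir-10, with 9 GAGAG and retained. The latter pair lay in the acetylated domain next to Scr. Of the 30 interphase H4K8ac peaks, 25 were left without the reach of 5 kb.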

How the data were processed

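GAF and H4K8ac ChIP-seq and their inputs came from 18 samples grouped by antibody and cell cycle stage per the labels. The authors trimmed reads with cutadapt 1.16, mapped them to dm6 with Bowtie2, subtracted input from the scaled coverage, averaged replicates and called peaks by a threshold on the mean signal. The deposited lists name a threshold of 100, a run of 50 and a gap of 200 for GAF, and 22, 30 and 2000 for H4K8ac. The study's methods give the run and gap of GAF for both, but the smallest gap between listed peaks was 200 bp for GAF and 2000 bp for H4K8ac. They hold starts and ends alone, read here as 0-based starts. The study states read totals as a range over its samples, and depth per list was not used here. A missing peak means a signal under the threshold, not absence of binding. Printed sequences are 1-based.

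Peaks were intersected with genes (Ensembl release 115) and the RefSeq release 6 genome in Python 3.11.15, with exact binomial 95% intervals from SciPy 1.17.1. GAGAG was counted without overlap on both strands. The overlap script was tested on simulated peaks. The deposited list of GAF peaks shared by both stages served as an alternative. Its 2362 intervals outnumber the 1552 interphase peaks that overlap a mitotic peak and have other edges at Hox genes, so it was not made from these stage lists as deposited. That for H4K8ac gave no value printed here. Named peaks were those at a start site and the longest and most GAGAG-rich of each gene; others were named after their values were seen. The Hox genes, gene lists and comparisons were chosen with earlier results of these data known. Alternatives covered the overlap, the window, a minimum length, the motif count and the deposited shared list.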

Additional observations from a re-analysis of the deposited data

How the results depend on the processing

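The 7 main results were recomputed under other settings, 5 of which moved them, while 21 changed them by less than their counting interval (or, for the GAGAG difference, by less than the spread between peaks, and for counts by less than 1.5 times). The retained share of Hox GAF peaks was 32.4% where mitotic peaks had to cover 50% of the interphase peak (12.4% of the whole list), 29.4% with a reciprocal overlap of 50% (10.7%), and 81.8% among peaks of at least 400 bp (58.0%). It ranged from 44.0% on gene bodies without the stretches, chosen after seeing the data, to 64.7% by the deposited shared list, which held 50.5% of all interphase peaks and was not made from the stage lists as deposited. The share of H4K8ac peaks that recurred in mitosis was 16.7% with a reciprocal overlap of 50%. It was 72.2% (13 of 18) among peaks of at least 400 bp and 60.0% (15 of 25) without the flanks. The mean GAGAG number of retained minus interphase-only Hox peaks, 2.53, became -3.16 per kb of peak. In a window of 400 bp around each peak centre it was 0.931. That window reaches past the edges of shorter peaks, so the interphase-only mean was 3.12 in it, against 2.69 within the peaks. With windows of 10 kb, 2 of 37 GAF peaks lay in interphase H4K8ac. Start sites were also tried at 1000 bp, the edge contacts as overlap, and the stretches without gene flanks or with the start site peaks that reach into them (9 peaks against 7), all chosen after seeing the data. No paired analysis was possible because the lists pool the replicates, and for the same reason no replicate could be left out. Peak height and the depth behind each list, which set how many peaks pass a threshold, were not used here, and the interphase GAF list pools 3 samples against 2 in mitosis.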

Other observations

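Partners of the Hox proteins and regulators that act beside them carried GAF at their start sites too. Of 6 such genes, 5 (hth, tsh, tio, disco and disco-r) had an interphase GAF peak in their window, against 37.5% of protein-coding genes. All 5 had one within 100 bp of a start site in both stages, against 11.5% in interphase and 4.61% in mitosis. Together they had 13 interphase peaks, of which 11 were retained, against 31.2% of the list. hth, which encodes a homeodomain cofactor needed to bring Exd into the nucleus, had 6 peaks with 5 retained, next to H4K8ac domains of up to 20000 bp in interphase and 21450 bp in mitosis. tio and disco, both zinc finger genes, had 2 and 1 peaks, all retained, and disco had 0 H4K8ac peaks in its window at both stages, as had disco-r. exd, which encodes the other homeodomain cofactor, had no GAF peak within 71742 bp and had H4K8ac at its start site at both stages.

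The protein-coding genes outside the complexes with the most interphase GAF peaks in the same window were Myo81F with 60, Pzl with 24, Eip75B with 21, Mnt with 17 and Raf with 15. Their retained numbers were 1, 0, 9, 7 and 11. Myo81F and Pzl are 1965857 and 709421 bp long, against 102976 bp for Antp with its 10 peaks and 77804 bp for Ubx with its 6.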
